A study of Mus musculus with 12 samples.

Results

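Fragments of a pair of mouse tRNAs were followed in sperm, those of the glutamine tRNA that reads through anticodon CTG (Gln-CTG) and those of the aspartate tRNA with anticodon GTC (Asp-GTC). They made up 44 of the 2971 unique sequences in the deposited table of tRNA-derived small RNAs, 21 for Gln-CTG and 23 for Asp-GTC. The members were chosen by measured values together with sequence. Sequences were sorted by their mean normalised value over 12 libraries, and each joined the family of the closest more abundant sequence within 2 edits, the shorter laid inside the longer. The most abundant sequence of a family is called its founder here. Mean levels and ranks therefore describe the choice and carry no test.

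The cells were sperm that had completed the replacement of histones (HRCS), taken from vas deferens and caudal epididymis, sonicated mildly to part heads from tails, and precipitated through 82% Percoll. Males received low protein diet (LPD) or control diet (CD) from week 3 to week 12 of age. The 4 groups of 3 libraries were ATF7+/- males on LPD, ATF7+/- males on CD, wild-type (WT) males on LPD and WT males on CD. ATF7+/- males carry 1 intact copy of Atf7, the gene of a stress-responsive transcription factor of the ATF/CREB family. How the other allele was altered is not given in the sources used here. No label says whether the libraries of a group came from separate animals or from pools, so p-values measure only the spread between these libraries, which may be technical. Only tRNA fragments were tabulated, so the sperm label could not be checked against marker genes. In such bulk samples, fewer cells that carry a fragment and less of it per cell cannot be told apart.

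A tRNA brings its amino acid to the ribosome and pairs with the codon through its anticodon, which lies in a loop near the middle of the molecule. Cleavage in or just before that loop leaves a long 5′ fragment of the tRNA, and such 5′ fragments are an abundant class of small RNA in mature mammalian sperm. Much of the sperm's load is acquired during passage through the epididymis, and its composition is known to respond to the father's diet in mice.

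Both families are 5′ fragments, and the members on which the results turn are printed below from the deposited table, in lower case. Positions are counted from 1 at the founder's 5′ end. Capitals mark the variable base of each family (base 4 in Gln-CTG, base 20 in Asp-GTC), the anticodon at bases 34 to 36, and any base that differs from the founder or its extension.
Gln-CTG founder, bases 1 to 30: ggtTccatggtgtaatggttagcactctgg
Gln-CTG, bases 1 to 29: ggtTccatggtgtaatggttagcactctg
Gln-CTG, bases 1 to 28: ggtTccatggtgtaatggttagcactct
Gln-CTG, bases 1 to 36, the longest: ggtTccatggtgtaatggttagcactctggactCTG
Gln-CTG T4C, bases 1 to 30: ggtCccatggtgtaatggttagcactctgg
Gln-CTG T3C and T4C, bases 1 to 30: ggCCccatggtgtaatggttagcactctgg
Gln-CTG G9A, bases 1 to 30: ggtTccatAgtgtaatggttagcactctgg
Gln-CTG G30A, bases 1 to 30: ggtTccatggtgtaatggttagcactctgA
Gln-CTG G30T, bases 1 to 30: ggtTccatggtgtaatggttagcactctgT
Asp-GTC founder, bases 1 to 34: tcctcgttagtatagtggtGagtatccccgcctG
Asp-GTC G20T, bases 1 to 34: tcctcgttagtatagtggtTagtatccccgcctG
Asp-GTC G34A, bases 1 to 34: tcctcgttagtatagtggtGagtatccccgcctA
Asp-GTC, bases 1 to 36, the longest: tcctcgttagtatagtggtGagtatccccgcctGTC
Asp-GTC, bases 1 to 29: tcctcgttagtatagtggtGagtatcccc
Asp-GTC, bases 2 to 34: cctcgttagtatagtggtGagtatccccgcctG
Asp-GTC G20T, bases 2 to 34: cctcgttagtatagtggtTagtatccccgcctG
Asp-GTC, bases 3 to 34: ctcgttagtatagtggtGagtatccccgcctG

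The family names were checked on the longest members, which end in the capitals CTG and GTC at bases 34 to 36. At 36 nt these equal the read length, so a longer fragment would not have been read through. In both families every member lay at most 1 edit from its nearest relative and at most 2 from the founder, while the closest sequence outside lay 3 edits away. That sequence was at a mean of 13.1 RPM beside Gln-CTG, and beside Asp-GTC, where 2 lay at that distance, the one that came first by mean level was at 28.1 RPM. The members with most edits were Gln-CTG with T3C and T4C, Gln-CTG with T4C and G30A or G29A, and Asp-GTC with G20T and G34A, each 2 edits from its founder. RefSeq's gene table for GRCm38.p6, the assembly that mm10 names, lists 10 Gln-CTG genes, with 4 on chromosome 3, 4 on chromosome 13 and 1 each on chromosomes 9 and 11. It lists 16 Asp-GTC genes, with 5 on chromosome 1, 3 each on chromosomes 5 and 13, 2 each on chromosomes 10 and 11 and 1 on chromosome 2. Each gene is listed at 72 bp. The genes' sequences were not used here, so no member is assigned to 1 gene.

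By the totals the authors give, depth ran from 2198744 to 6870039 reads a library, of which 2583 to 13223 per library were Gln-CTG and 1095 to 5449 were Asp-GTC. Levels are in RPM, the authors' reads normalised to each library's total. A sequence without reads could have stood at up to 0.437 to 1.36 RPM (3 counts), although no member was at 0 in any library. The lowest count was 4 for a Gln-CTG member and 1 for an Asp-GTC member. Reads carry no molecular identifiers, so such limits and all binomial intervals cover counting error only. Every sequence of the deposited table had a mean of at least 1 RPM, so rarer fragments may be missing from it. An end or base said below to have no member may therefore still occur at a low level. The 3 libraries of ATF7+/- on LPD were all deeper than those of WT on LPD (4828916 to 6870039 against 2278880 to 2874170 reads), so depth and genotype cannot be told apart on that diet. Between replicates, the members' variance was 3.23 to 37.4 times that of counting, and no libraries repeated one another.

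Gln-CTG fragments mostly ended a few bases before the anticodon. The family stood at a total of 1501 ± 317 RPM (mean ± SD, n = 12 libraries), 0.153% of the tabulated reads, and was 9th of 19 families built in the same way. Reads that ended at base 30 made up 63.3% ± 5.45 of the family and those that ended at base 29 made up 31.2% ± 5.60. Only 2.27% ± 0.533 ended at base 28 and 0.555% ± 0.158 at base 31. No member ended at bases 32 to 35, and 2.66% ± 1.04 ran to base 36, through the whole anticodon. Of the 21 members 16 began at base 1, with 95.9% ± 0.914 of the reads, and the other 5 began at base 2. In this family 9 members carried no substitution.

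The founder, at a mean of 688 RPM, took 46.1% ± 4.10 of the family's reads. It was at 747, 871 and 965 RPM in ATF7+/- LPD, 788, 488 and 635 RPM in ATF7+/- CD, 596, 756 and 644 RPM in WT LPD and 530.1, 526 and 717 RPM in WT CD libraries. The fragment of bases 1 to 29, with a mean of 311 RPM, spread more widely. Its levels were 322, 261 and 355 RPM in ATF7+/- LPD, 244, 188 and 394 RPM in ATF7+/- CD, 276, 404 and 295 RPM in WT LPD and 229, 216 and 553 RPM in WT CD. In both CD groups replicate 3 was the highest for this shorter fragment, and no pair of groups stood apart for it. The 36-nt fragment through the anticodon was at 31.9, 26.8 and 30.4 RPM in ATF7+/- LPD, 61.6, 32.1 and 25.9 RPM in ATF7+/- CD, 21.1, 33.4 and 31.3 RPM in WT LPD and 34.9, 22.0 and 55.0 RPM in WT CD.

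A C in place of the T at base 4 was carried by 7 Gln-CTG members, with 17.6 ± 1.60% of the reads (n = 12). The most abundant was T4C of bases 1 to 30, at a mean of 118 RPM, followed by T4C of bases 1 to 29 at 94.1 RPM. The C was present on both main ends. It was present in 26.4% ± 2.24 of the reads that ended at base 29 and in 14.7% ± 1.25 of those that ended at base 30, and the order was the same in 12 of 12 libraries, each with at least 775 reads at an end. No C member ended at base 28, 31 or 36, so the anticodon of the C forms was not seen. The comparison of ends is a description, since both shares come from the same libraries. Members with a substituted last base numbered 5, of which 2 also carried C at base 4, with 8.11 ± 0.896% of the reads, and in 4 of the 5 an A stood in place of G. Of these G30A was at a mean of 65.3 RPM. A further pair of members carried G9A and G9C, at means of 7.73 and 5.79 RPM.

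Asp-GTC fragments reached into the anticodon. Their total was 732 ± 159 RPM, 0.0747% of the tabulated reads and 10th of the 19 families. Reads that ended on base 34, the first anticodon base, made up 68.6% ± 5.0 of the family. A further 9.56% ± 2.58 ended at base 35 and 3.58% ± 1.31 at base 36. In all, 13 of 23 members reached at least base 34. Some of these, counted among the reads that ended on base 34, carry A or T there in place of the anticodon's G. Shorter fragments ended at each of bases 29 to 33, and base 30 was the most frequent of these ends with 6.59% ± 1.54. Members that began at base 1 numbered 19 and held 93.6% ± 4.94 of the reads. Bases 2 and 3 were the start of 3 members and 1 member, with 5.46% ± 4.15 and 0.931% ± 0.974.

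The Asp-GTC founder took 41.0% ± 2.37 of the family, at a mean of 302 RPM. Its levels were 365, 288 and 337 RPM in ATF7+/- LPD, 417, 356 and 212 RPM in ATF7+/- CD, 189.6, 276 and 271 RPM in WT LPD and 421, 236 and 256 RPM in WT CD libraries. The G20T form of the same ends was at 110.2, 105 and 119.5 RPM in ATF7+/- LPD, 143, 122 and 75.5 RPM in ATF7+/- CD, 103, 104 and 119.9 RPM in WT LPD and 95.5, 75.3 and 86.5 RPM in WT CD. All 3 WT LPD libraries lay above the WT CD libraries for G20T, whereas the founder overlapped between these groups. Extension by 1 base, to base 35, gave 64.6, 51.1 and 61.3 RPM in ATF7+/- LPD, 41.2, 58.1 and 35.5 RPM in ATF7+/- CD, 55.3, 48.4 and 68.2 RPM in WT LPD and 37.2, 49.5 and 51.0 RPM in WT CD. The G34A form had a mean of 30.6 RPM and the fragment of bases 1 to 30 a mean of 29.6 RPM.

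T at base 20 was carried by 8 Asp-GTC members, with 23.1 ± 3.71% of the reads. Its share differed from end to end without following their order. T was present in 26.6% ± 10.8 of the reads that ended at base 29, 37.0% ± 7.28 at base 30 and 34% ± 7.76 at base 31. It was present in 26.4% ± 7.73 at base 33, 24.9% ± 4.43 at base 34 and 13.9% ± 3.24 at base 35, and no T member ended at base 32 or 36. The share was higher at base 30 than at base 34 in 12 of 12 libraries, although at base 29 it rests on as few as 10 reads in a library. Last-base substitutions occurred in 6 members with 8.69 ± 1.11% of the reads, among them G34A, G34T, C32T and T35C, and an A stood in place of G in 3 of them. By length, 75.3% ± 3.94 of Asp-GTC reads had 34 to 36 nt and 93.3% ± 1.22 of Gln-CTG reads had 29 to 30 nt. Founders of 34 or 36 nt also head 3 other families of the table.

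Neither family total was called between any groups. Gln-CTG totals were 1635, 1695 and 1959 RPM in ATF7+/- LPD and 1543, 1006 and 1540.0 RPM in ATF7+/- CD libraries. On the same scale WT LPD libraries were at 1291, 1746 and 1435 RPM and WT CD libraries at 1138, 1092 and 1929.8 RPM. All ATF7+/- LPD libraries lay above the ATF7+/- CD libraries, and in WT the diets overlapped. The log2 fold change between the diets was 0.37 (SE 0.23) in ATF7+/-, 0.10 (SE 0.23) in WT and 0.24 (SE 0.17) over both genotypes. The adjusted p-values were 0.606, 0.868 and 0.517 by edgeR's quasi-likelihood test with Benjamini-Hochberg adjustment over 19 families. In these 3 comparisons edgeR called 0% of the families. Unadjusted p-values under 0.05 were reached by 2 families in each, and DESeq2 and limma-voom called 0.

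Asp-GTC totals were 846, 685 and 807 RPM in ATF7+/- LPD and 969, 820.2 and 498 RPM in ATF7+/- CD libraries. WT LPD libraries were at 533, 676 and 691 RPM and WT CD libraries at 999.8, 619 and 639 RPM. The diets overlapped in both genotypes, with log2 fold changes of 0.03 (SE 0.25) in ATF7+/- and −0.25 (SE 0.25) in WT. Between the genotypes, ATF7+/- over WT, Asp-GTC differed by 0.30 (SE 0.25) on LPD and 0.02 (SE 0.25) on CD, and Gln-CTG by 0.24 (SE 0.23) and −0.03 (SE 0.23). The smallest adjusted p among these 4, by edgeR's quasi-likelihood test with Benjamini-Hochberg adjustment, was 0.471. On LPD 10.5% of the families were called between the genotypes and on CD 0%. On CD no family (0) had an unadjusted p below 0.05 in edgeR, and DESeq2 and limma-voom called 0. Over both diets, where 10.5% were also called, the folds were 0.16 for Asp-GTC and 0.11 for Gln-CTG. The interaction of diet and genotype was 0.28 (SE 0.35) and 0.27 (SE 0.33), and 0% of the families were called for it by edgeR. No family (0) had an unadjusted p below 0.05, and both other tools called 0.

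Among single sequences, 3 of the 44 members were called between LPD and CD over both genotypes (6 libraries a diet), 2 Asp-GTC fragments that lack first bases, which fell, and 1 short Gln-CTG fragment, which rose. The 3 are 6.82% of the members, below the 11.9% called in the whole table, where 10.3% were lower and 1.55% higher on LPD. The median log2 fold change of the 44 was 0.12, with 27 positive, beside −0.01 over all 2971 sequences, with 1454 positive. By family the median was 0.28 for Gln-CTG and 0.02 for Asp-GTC. DESeq2 called 6 members, 13.6% of the 44 beside 17.8% of all sequences, and limma-voom called 0 of the members and 0 of the 2971 sequences.

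The Asp-GTC fragment of bases 3 to 34 was at 3.93, 0.728 and 3.11 RPM in ATF7+/- LPD and at 11.1, 6.61 and 11.8 RPM in ATF7+/- CD libraries. WT libraries had 0.878, 2.78 and 2.61 RPM in WT LPD and 33.1, 7.19 and 2.98 RPM in WT CD. In each genotype all LPD libraries lay below all CD libraries, and the highest value, 33.1 RPM, was that of WT CD replicate 1. In WT this separation rests on few reads, with 8 in WT LPD replicate 2 and 9 in WT CD replicate 3. WT LPD replicate 1 had 2 reads, under the limit of 3 counts. LPD over CD gave a log2 fold change of −2.36 (SE 0.57, adjusted p 0.0243, edgeR quasi-likelihood with Benjamini-Hochberg adjustment). The Asp-GTC G20T fragment of bases 2 to 34 was at 5.18, 2.04 and 4.59 RPM in ATF7+/- LPD, against 21, 14.3 and 5.46 RPM in ATF7+/- CD. In WT it was at 1.32, 3.13 and 2.17 RPM in WT LPD, against 17.8, 7.61 and 3.31 RPM in WT CD. Here too the LPD libraries lay below the CD libraries within each genotype, with a log2 fold change of −1.97 (SE 0.45, adjusted p 0.0232 by the same edgeR test and adjustment). The nearest WT libraries again held few reads, 9 in WT LPD replicate 2 and 10 in WT CD replicate 3. In ATF7+/- the nearest values were 5.18 RPM in LPD replicate 1 and 5.46 RPM in CD replicate 3, the latter from 12 reads. Both fragments were named because they were called in this comparison, so the separation of the diets adds no support.

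The fragment of bases 2 to 34 with G at base 20, the most abundant of the 4 that lack first bases, was not called (log2 fold change −1.71, SE 0.55, adjusted p 0.0598 by edgeR). It ran from 6.99 to 31.3 RPM in ATF7+/- LPD and from 15.5 to 78.5 RPM in ATF7+/- CD libraries. In WT it ran from 5.70 to 18.7 RPM on LPD and from 12.9 to 119 RPM on CD. The last of the 4, bases 2 to 34 with G34A, was at a mean of 0.813 RPM in WT LPD, under the level of 3 counts, so no fold is given. Elsewhere in the table, 648 sequences of the other families also began later than their founder, and 45.2% of them were called, with a median log2 fold change of −1.28.

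Whether these 3 passed the threshold depended on single libraries. Leaving out WT CD replicate 1, WT LPD replicate 1 or 2, ATF7+/- CD replicate 1, or ATF7+/- LPD replicate 2 or 3 ended all 3 calls, and without WT CD replicate 2 or ATF7+/- CD replicate 2 the Gln-CTG call was lost. With those libraries out, the log2 fold changes of the lost calls were −2.50 to −1.57 for bases 3 to 34, −2.15 to −1.54 for G20T of bases 2 to 34 and 0.64 to 0.93 for the Gln-CTG fragment, with adjusted p-values of 0.0586 to 0.0979 by edgeR. Of all sequences, 0% were called without WT LPD replicate 1 or 2 or ATF7+/- LPD replicate 2 or 3. Without WT CD replicate 1, ATF7+/- CD replicate 1, WT CD replicate 2 and ATF7+/- CD replicate 2 the share was 3.43, 1.88, 7.51 and 5.39%. It was 11.9% with all libraries, so calls fell over the whole table, not only among these 3. Without WT CD replicate 3 there were 7 calls among the 44 (15.9%, beside 24.0% of all sequences), and without ATF7+/- CD replicate 3 there were 6 (13.6%, beside 26.9%). As an alternative chosen after seeing the data, CD replicates 1 and 2 of both genotypes, with the highest shares of Asp-GTC reads lacking first bases, were left out. With 1 library left in each CD group, the log2 fold change was −1.35 for bases 3 to 34, −0.52 for G20T of bases 2 to 34 and 0.61 for the short Gln-CTG fragment. The libraries were picked by the trait of the 2 Asp-GTC fragments. Weaker folds for these were therefore built into the choice and are no test of them.

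The called Gln-CTG fragment covers bases 1 to 28, the shortest that begins at base 1. It was at 37.3, 34.5 and 40.1 RPM in ATF7+/- LPD and at 20.6, 10.6 and 16.4 RPM in ATF7+/- CD libraries. In WT it was at 25, 41.1 and 23 RPM in WT LPD and at 23.4, 16.9 and 29.2 RPM in WT CD. The diets were apart in ATF7+/- and overlapped in WT, and the fragment was named for its call, so the separation adds no support. LPD exceeded CD by 0.80 on the log2 scale (SE 0.22, adjusted p 0.0360, edgeR quasi-likelihood with Benjamini-Hochberg adjustment). T4C of bases 1 to 30 came next among Gln-CTG members and was not called (log2 fold change 0.49, SE 0.17, adjusted p 0.0830 by edgeR). Its level was 156 ± 13.0 RPM in ATF7+/- LPD and 106 ± 18.4 RPM in ATF7+/- CD (SD, n = 3), and 119 ± 12.1 RPM in WT LPD and 89.6 ± 26.6 RPM in WT CD. Without WT CD replicate 3 it was called, at 0.62. The founders were not called, at 0.30 (SE 0.17) for Gln-CTG and −0.15 (SE 0.21) for Asp-GTC.

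Over all Asp-GTC reads, the share that lacked first bases averaged lower on LPD than on CD, although not past the threshold after adjustment. It was 5.14, 1.59 and 3.71% in ATF7+/- LPD and 12.1, 8.81 and 6.85% in ATF7+/- CD libraries. WT LPD libraries had 1.56, 3.19 and 3.58% and WT CD libraries 18.3, 8.61 and 3.22%. The groups did not overlap in ATF7+/-, and in WT replicate 3 on CD, at 3.22%, lay among the LPD libraries. The mean difference was −6.52 percentage points (exact stratified permutation test, two-sided, p = 0.01, the diet labels permuted within each genotype). After Benjamini-Hochberg adjustment over the 54 exact tests of this kind it was 0.270. A lone test at the smallest possible p, 0.005, also comes to 0.270 after this adjustment. No single test could therefore pass the threshold alone, and missing it does not decide whether the share differed. The widest 95% Wilson interval of such a share reached 1.5 percentage points to either side.

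The same share in the other 17 families ranked the libraries of each group in the same order. There the reads that began later than the founder made up 6.91, 3.27 and 4.94% in ATF7+/- LPD and 13.0, 9.98 and 5.52% in ATF7+/- CD libraries. WT LPD libraries had 4.20, 5.09 and 6.25% and WT CD libraries 20.1, 11.1 and 5.96%. WT CD replicate 1 was the highest library and replicate 3 the lowest of its group in both measures. What part this table-wide share has in the Asp-GTC calls was not tested. In Gln-CTG the difference was −0.969 percentage points (exact stratified permutation p = 0.045, adjusted 0.297), with 2.96, 2.99 and 2.99% in ATF7+/- LPD and 4.57, 4.07 and 4.34% in ATF7+/- CD. WT LPD libraries had 2.92, 4.52 and 5.02% and WT CD libraries 4.97, 3.79 and 5.48%. None of the 5 Gln-CTG members that lack the first base was called, whereas 2 of the 4 in Asp-GTC were, and this difference between the families was not tested.

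Several 3′ ends also differed between the diets before adjustment. Reads of Gln-CTG that ended at base 28 were 2.60 ± 0.117% in ATF7+/- LPD and 1.53 ± 0.181% in ATF7+/- CD (SD, n = 3), and 2.59 ± 0.436% in WT LPD and 2.38 ± 0.400% in WT CD. The difference over both genotypes was 0.640 percentage points (exact permutation p = 0.03, adjusted 0.297). Reads that ran through the Gln-CTG anticodon to base 36 were 1.86 ± 0.314% in ATF7+/- LPD and 3.42 ± 1.51% in ATF7+/- CD, and 2.16 ± 0.244% in WT LPD and 3.20 ± 0.907% in WT CD, a difference of −1.30 points (exact permutation p = 0.04, adjusted 0.297). The long end of Asp-GTC had the opposite sign. Its reads that ended at bases 35 or 36 were 13.2 ± 0.451% in ATF7+/- LPD and 10.5 ± 2.37% in ATF7+/- CD, and 16.8 ± 3.41% in WT LPD and 12.0 ± 4.76% in WT CD, a difference of 3.72 points (exact permutation p = 0.035, adjusted 0.297). All 4 Asp-GTC members that lack first bases end at base 34, so a lower share of them raises the shares of the other ends. The difference at bases 35 or 36 is therefore not independent of that share, and how much they have in common was not tested. None of these differences in 3′ ends passed 0.05 after adjustment, which no test of this kind could pass alone, as given above. Mean read length differed by 0.0943 nt in Asp-GTC (exact permutation p = 0.055) and by −0.0636 nt in Gln-CTG (exact permutation p = 0.27).

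Within WT, 0 of the 44 members were called between LPD and CD, against 2.52% of all sequences. Unadjusted p-values under 0.05 were reached by 8 members, all Asp-GTC, and by 648 sequences in all. DESeq2 called 3 of the members (6.82%) beside 11% of all sequences, and limma-voom 0 of either. The Asp-GTC fragment of bases 3 to 34 had the smallest p, with a log2 fold change of −2.78 (SE 0.85, adjusted p 0.0761 by edgeR), and G20T of bases 2 to 34 followed at −2.11 (SE 0.69, adjusted p 0.0948). Without WT CD replicate 3 there were 6 calls, all Asp-GTC, with −3.27 and −2.52 for this pair, and 19.4% of all sequences were called. Without WT CD replicate 1 the pair was at −1.22 and −1.23, and edgeR called 0 sequences, with 329 at an unadjusted p under 0.05. Among Gln-CTG members the smallest p-values were those of T4C of bases 1 to 30 (log2 fold change 0.41, SE 0.25) and of T3C with T4C of the same ends (0.47, SE 0.29), neither called (adjusted p 0.363 and 0.383 by edgeR). The last was at 14.3 ± 2.61 RPM in WT LPD and 10.3 ± 3.42 RPM in WT CD. T4C of bases 1 to 30 was at −0.01 once CD replicates 1 and 2 of both genotypes were left out.

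Within ATF7+/-, again 0 of the 44 were called between the diets, against 0.101% of all sequences, with 8 members and 501 sequences at an unadjusted p under 0.05. Here 6 of the 8 were Gln-CTG members that begin at base 1. The fragment of bases 1 to 28, whose libraries are given above, had a log2 fold change of 1.23 (SE 0.31, adjusted p 0.192 by edgeR). G30T was at 11.2, 16.4 and 17.6 RPM in ATF7+/- LPD and 10.0, 8.68 and 7.73 RPM in ATF7+/- CD (0.76, SE 0.27, adjusted p 0.255). The diets did not overlap for either fragment, but both were named for their small p-values, so this adds no support. The 16 Gln-CTG members with a first base had a median log2 fold change of 0.52, 14 of them positive and 12.5% negative. Over all 2314 sequences that did not begin later than their founder it was 0.16, with 33.9% negative. The 16 share most of their sequence and come from the same libraries, so they do not count as separate observations. For Asp-GTC the log2 fold changes were −1.84 (SE 0.58) for G20T of bases 2 to 34 and −1.93 (SE 0.75) for bases 3 to 34, with adjusted p-values of 0.226 and 0.271 by edgeR. DESeq2 called 1 member, the fragment of bases 1 to 28, which is 2.27% of the 44 beside 1.51% of all sequences. Limma-voom called 0 members and 1 sequence.

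Between ATF7+/- and WT on LPD, 0 members were called by edgeR, DESeq2 or limma-voom, against 0.202% of all sequences by edgeR, and 8 members and 506 sequences reached an unadjusted p under 0.05. The Asp-GTC fragment of bases 1 to 29 was at 19.5, 14.6 and 19.4 RPM in ATF7+/- LPD and 2.19, 9.39 and 7.82 RPM in WT LPD, without overlap. ATF7+/- over WT gave 1.44 on the log2 scale (SE 0.41, adjusted p 0.119 by edgeR). By contrast, G20T of bases 1 to 30 was at 15.9, 12.5 and 16.1 RPM in ATF7+/- LPD and 25, 18.4 and 23.9 RPM in WT LPD, also without overlap (−0.59, SE 0.23, adjusted p 0.225). Gln-CTG G9A was at 9.73, 11.2 and 12.7 RPM in ATF7+/- LPD and 4.83, 6.96 and 4.78 RPM in WT LPD (1.01, SE 0.37, adjusted p 0.196), and G30T had 0.77 (SE 0.28). These members were named for their small p-values, so a lack of overlap adds no support. A fit of these 2 groups alone called 3 members, namely Gln-CTG G9A at 1.01, Asp-GTC of bases 1 to 29 at 1.42 and Asp-GTC of bases 1 to 31 at 0.97. That is 6.82% of the members, beside 12.5% of all sequences in the same fit. The ATF7+/- libraries are the deeper ones here, as given above. Over all sequences the median of this comparison was 0.11 with the authors' totals and 0.01 with DESeq2's size factors.

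Between ATF7+/- and WT on CD, no member was called, nor was any other sequence (0% of 2971), and 0 members and 125 sequences had an unadjusted p under 0.05 by edgeR. DESeq2 and limma-voom also called 0. The members with the smallest p-values were Gln-CTG of bases 2 to 28 at −1.03 (SE 0.49), Gln-CTG of bases 1 to 28 at −0.55 (SE 0.31), and Asp-GTC G20T of bases 1 to 29 at 0.89 (SE 0.42) and of bases 1 to 34 at 0.41 (SE 0.24). All 4 had an adjusted p of 0.965 by edgeR, and the groups overlapped for each. With 1 library left out in turn they ran from −1.38 to −0.24, −0.81 to −0.32, 0.41 to 1.07 and 0.21 to 0.63.

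Over both diets 0.101% of the sequences and 0 members were called between the genotypes by edgeR, with 3 members and 336 sequences at an unadjusted p under 0.05. DESeq2 called 49 sequences and limma-voom 4, none of them a member. Asp-GTC G20T of bases 1 to 29 had the smallest p among the members, with a log2 fold change of ATF7+/- over WT of 1.00 (SE 0.31, adjusted p 0.269 by edgeR). Its levels were 3.93, 4.95 and 5.04 RPM in ATF7+/- LPD and 10.2, 5.10 and 4.55 RPM in ATF7+/- CD, and 2.19, 2.44 and 1.74 RPM in WT LPD and 2.80, 4.65 and 3.64 RPM in WT CD. On LPD all ATF7+/- libraries exceeded all WT libraries, and on CD they overlapped. The WT LPD values rest on 5, 7 and 4 reads, and on LPD the ATF7+/- libraries are the deeper ones. The fragment was named for its small p-value, so the lack of overlap adds no support. Asp-GTC of bases 1 to 29 with G at base 20 followed at 0.69 (SE 0.28), then Gln-CTG G9A at 0.58 (SE 0.26) and G30T at 0.38 (SE 0.20). None was called, with adjusted p-values of 0.382, 0.427 and 0.522 by edgeR.

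For the interaction, the diet difference in ATF7+/- minus that in WT, 0% of the sequences and 0 members were called by edgeR, with 2 members and 292 sequences at an unadjusted p under 0.05. DESeq2 called 3 sequences and limma-voom 0, and neither called a member. The pair of members was Asp-GTC of bases 1 to 29 (1.49, SE 0.56) and of bases 1 to 31 (1.54, SE 0.60), both with an adjusted p of 0.468 by edgeR. The fragment of bases 1 to 31 was at 16.6, 13.2 and 14.1 RPM in ATF7+/- LPD and 18.1, 11.5 and 6.37 RPM in ATF7+/- CD, and at 4.83, 10.4 and 6.51 RPM in WT LPD and 24.4, 20.7 and 8.95 RPM in WT CD. In Gln-CTG the smallest p-values were those of bases 1 to 28 (0.88, SE 0.44) and G30T (0.78, SE 0.40), with adjusted p-values of 0.524 and 0.540.

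Reads with T at base 20 of Asp-GTC were 20.3, 23.4 and 22.7% in ATF7+/- LPD and 23.1, 23.6 and 23.6% in ATF7+/- CD libraries. WT LPD libraries had 31.9, 24.3 and 26.6% and WT CD libraries 16.9, 19.6 and 21.7%. In WT all LPD libraries lay above all CD libraries, while in ATF7+/- the diets overlapped. The difference between the diets in ATF7+/- minus that in WT was −9.44 percentage points (exact stratified permutation p = 0.005, the smallest that 400 relabellings allow, adjusted p = 0.270 over 54 tests). For this and the other interactions of shares, genotype labels were permuted within each diet, so the null is no genotype difference on either diet. A lone test at the smallest p cannot pass the threshold after this adjustment, so the adjusted p does not decide the question. C at base 4 of Gln-CTG was 17.8 ± 1.26% in ATF7+/- LPD and 17.3 ± 1.55% in ATF7+/- CD, and 18.8 ± 1.04% in WT LPD and 16.3 ± 2.0% in WT CD (SD, n = 3), with an interaction of −2.07 points (exact permutation p = 0.24).

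Reads with a substituted last base were compared in the same way. In Asp-GTC they were 9.23 ± 0.339% in ATF7+/- LPD and 7.90 ± 0.285% in ATF7+/- CD, and 8.17 ± 0.366% in WT LPD and 9.47 ± 1.93% in WT CD. In Gln-CTG they were 8.95 ± 0.290% in ATF7+/- LPD and 7.59 ± 0.774% in ATF7+/- CD, and 7.54 ± 0.419% in WT LPD and 8.37 ± 1.23% in WT CD. The interactions were 2.64 points in Asp-GTC (exact permutation p = 0.02) and 2.18 points in Gln-CTG (exact permutation p = 0.04), both with an adjusted p of 0.297 over the 54 exact tests. In both families all ATF7+/- LPD libraries lay above the ATF7+/- CD and the WT LPD libraries.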

How the data were processed

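Small RNA from mouse sperm was sequenced as 36-bp reads in 12 libraries, 3 in each of 4 groups. For each unique tRNA fragment the authors deposited a count and a normalised value per library. The normalised values were checked to be RPM, the count over the library total that the authors used. The reads were placed on mm10, per the submitters' processing notes. The aligner, the counter and the rule assigning reads to tRNAs were not given in the sources used here. Sequence lengths are those in the deposited table.

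Families were built with edlib 1.3.9.post1 in Python 3.11.15, joining sequences within 2 edits. The members, lists and tests were chosen with earlier results of these data known. Counts of all 2971 sequences, and of 19 family totals, were fitted over the 4 group means with edgeR 4.0.16 (quasi-likelihood, the authors' totals as library sizes, mean of at least 1 RPM), with Benjamini-Hochberg adjustment and a threshold of 0.05. Shares and lengths were compared by exact stratified permutation tests (scipy 1.17.1) with 400 relabellings, which cannot go below p = 0.005, adjusted over 54 tests. For interactions the genotype labels were permuted within each diet, which tests against no genotype difference on either diet. The alternatives were DESeq2 1.42.0, limma-voom 3.58.1, other library sizes, filters, edit limits and samples, each library left out, and a replicate block. Same-numbered libraries deviated together between ATF7+/- CD and WT CD (r = 0.547, 0.143 and 0.522) and in no other pair of groups were all 3 correlations above 0.1. Named sequences are each founder, the 5 most abundant members, those with most edits, and per comparison the called members or, below 2 in a family, its 2 smallest p-values. For members named by p-value, a lack of overlap between groups follows in part from that choice. Others are described where their values bear on these.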

Additional observations from a re-analysis of the deposited data

Results flagged for a closer look

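The share of Asp-GTC reads with T at base 20 differed between the genotypes in opposite directions on the 2 diets. It was 20.3, 23.4 and 22.7% in ATF7+/- and 31.9, 24.3 and 26.6% in WT on LPD, and 23.1, 23.6 and 23.6% in ATF7+/- and 16.9, 19.6 and 21.7% in WT on CD. All ATF7+/- libraries lay below WT on LPD and above WT on CD. Over both diets ATF7+/- minus WT came to −0.711 percentage points. The exact permutation test of the interaction, with genotype labels permuted within each diet, gave p = 0.005, the smallest it can give. Its adjusted p over 54 tests was 0.270. A lone test at the smallest p cannot pass the threshold after this adjustment, so the adjusted p does not decide the question.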

How the results depend on the processing

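Counts of called members moved with the test. DESeq2 called 3 in WT between the diets, 1 in ATF7+/- and 6 over both genotypes, and limma-voom 0 over both. Those DESeq2 counts are 6.82, 2.27 and 13.6% of the members, beside 11, 1.51 and 17.8% of all sequences. Fitting only the groups compared gave 3 between genotypes on LPD (6.82% of the members, beside 12.5% of all sequences). With the replicate block such a fit gave 4 between diets in ATF7+/- (9.09% of the members, beside 8.75% of all sequences). There same-numbered libraries did not deviate together in every pair. Under the replicate block in all 4 groups the diet calls over both genotypes stayed at 3, and the share lacking first bases gave −6.52 points in Asp-GTC (exact permutation p = 0.0625) and −0.969 in Gln-CTG (exact permutation p = 0.0938). With 0 edits only, the Gln-CTG share gave −0.702 and the Asp-GTC total −0.029 between genotypes on CD. There the Gln-CTG total was 0.084 with TMM factors and 0.094 with DESeq2. Leaving out CD replicates 1 and 2 of both genotypes left 1 library in each CD group, so only folds are given. The log2 fold changes of the totals were then −0.37 (Gln-CTG, diet in WT), −0.36 (Asp-GTC, genotype on CD), −0.089 and 0.32 (Gln-CTG and Asp-GTC, diet over both) and −0.042 and −0.030 (genotype over both). T4C of bases 1 to 30 gave −0.010 for diet in WT, and G20T of bases 1 to 34 gave −0.20 for genotype on CD. The cause of these changes was not tested.

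Leaving out each library in turn gave 0 to 6 called members for diet in WT and 0 to 7 over both genotypes. Of all sequences, 0 to 19.4% and 0 to 26.9% were called in these fits. Gln-CTG totals ran from −0.041 to 0.42 for diet in WT, 0.19 to 0.47 in ATF7+/-, 0.15 to 0.40 over both, −0.17 to 0.29 for genotype on CD, 0.15 to 0.37 on LPD, 0.036 to 0.27 over both, and −0.047 to 0.41 for the interaction. Asp-GTC totals ran from −0.37 to 0.011 for diet in WT, −0.20 to 0.24 in ATF7+/-, −0.22 to 0.021 over both, −0.19 to 0.28 for genotype on CD, 0.19 to 0.38 on LPD, 0.055 to 0.29 over both, and 0.019 to 0.49 for the interaction. The Gln-CTG share lacking the first base ran from −1.21 to −0.660 points. Mean length differences ran from −0.110 to −0.0279 nt (diet) and 0.0258 to 0.108 nt (genotype) in Gln-CTG, and from 0.0727 to 0.119 nt and −0.0331 to 0.0129 nt in Asp-GTC. DESeq2's size factors moved the median of all sequences from 0.11 to 0.01 for genotype on LPD and from 0.16 to 0.05 for the interaction. With 1095 Asp-GTC reads in the shallowest library, the least abundant members rest on a few reads.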
